A study of Mus musculus with 3 samples.

Results

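The genes described are 10 members of the Slit, Robo, netrin and netrin receptor families in adult lung endothelial cells (ECs): the ligands *Slit1*, *Slit2*, *Slit3*, *Ntn1* and *Ntn4*, and the receptors *Robo1*, *Robo2*, *Robo4*, *Unc5b* and *Neo1*. They were chosen by gene symbol, and all 10 were found among the 24346 rows of the expression table. The table holds 3 bulk RNA-seq libraries, named S38, S44 and S52, of 1 group. Lungs came from wild type male C57BL/6J mice aged 6 to 8 weeks that had received an antibody to VE-cadherin through the circulation. The lungs were digested with collagenase and dispase, and cells positive for CD31 and VE-cadherin and negative for CD45 and podoplanin were sorted by FACS and used without culture. Values are FPKM, fragments scaled to the length of the transcript and to the number of mapped fragments, so that levels of different genes are given per length. The labels do not say that the libraries came from separate animals, and their spread may be technical. ECs of other organs and stages were not analysed here, and no difference between conditions was tested.

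Slit proteins are large secreted ligands that bind Robo receptors on the cell surface, and were first known for turning growing axons away from the midline. Netrins are secreted, laminin-related proteins that attract cells through DCC and neogenin and repel them through receptors of the Unc5 family. In vessels, Robo4 is an EC-restricted member of the Robo family that lacks part of the Slit-binding ectodomain of the other Robos and is known for keeping vessels stable, partly by binding Unc5b, the main Unc5 receptor of ECs. The primary transcripts of *Slit2* and *Slit3* carry, within introns, the genes of the microRNA miR-218, whose known targets include *Robo1* and *Robo2*.

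The sequences shown are stretches before the starts of receptor genes, and the miR-218 seed with its matches. *Robo4*, *Unc5b* and *Robo1* are shown because they are an EC-restricted receptor at a high level, an EC netrin receptor at a middle level and a Robo receptor at a low level. The letters are RefSeq reference sequence on GRCm38.p6, 5′ to 3′ on the strand of the gene, and have each CpG dinucleotide in capitals. The *Robo4* stretch is chr9:37401722-37401896 on the plus strand, that of *Unc5b* is chr10:60831582-60831831 on the minus strand and that of *Robo1* is chr16:72662899-72663148 on the plus strand. The first 2 end just before the GENCODE start of the gene, and the *Robo1* stretch ends at a RefSeq start that lies inside the GENCODE span of the gene, downstream of its GENCODE start.
Robo4: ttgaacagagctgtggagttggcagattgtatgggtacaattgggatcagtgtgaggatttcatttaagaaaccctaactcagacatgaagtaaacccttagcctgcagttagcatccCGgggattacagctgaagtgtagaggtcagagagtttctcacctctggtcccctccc
Unc5b: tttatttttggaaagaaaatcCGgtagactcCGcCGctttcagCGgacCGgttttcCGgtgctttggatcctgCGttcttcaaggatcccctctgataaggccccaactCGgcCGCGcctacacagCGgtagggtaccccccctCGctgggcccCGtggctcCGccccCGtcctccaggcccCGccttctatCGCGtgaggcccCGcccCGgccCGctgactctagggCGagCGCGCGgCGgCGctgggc
Robo1: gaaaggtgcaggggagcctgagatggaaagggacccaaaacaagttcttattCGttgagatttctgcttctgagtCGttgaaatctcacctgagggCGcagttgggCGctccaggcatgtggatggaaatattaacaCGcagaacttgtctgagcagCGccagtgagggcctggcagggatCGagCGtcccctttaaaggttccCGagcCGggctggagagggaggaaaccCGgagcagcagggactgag
The *Robo4* stretch holds 1 CpG in 175 bases, that of *Unc5b* 27 in 250 bases and that of *Robo1* 11 in 250 bases. In the full RefSeq promoter window of 300 bases (250 before the start and 50 after it), 8 of the 10 members were matched. The ratio of observed to expected CpG was 0.11 for *Robo4*, and 14.2% of the 32851 promoters in the table were below it. It was 0.65 for *Robo1*, 0.84 for *Ntn4*, 0.90 for *Slit2*, 0.93 for *Slit3*, 0.99 for *Unc5b* and 1.05 for *Neo1*. The 3 annotated starts of *Robo2* gave 0.33, 0.45 and 0.55, and the median over all promoters was 0.38. *Robo4* therefore had the lowest CpG ratio of the matched members, and only it and 1 *Robo2* start lay under the median. Motifs were searched on both strands of the same windows. GGAA, the core recognised by ETS factors, which are central to EC gene expression, was found 4 times for *Robo4*, 5 times for *Robo1*, 2 to 4 times at the *Robo2* starts, 3 times for *Ntn4*, 2 times each for *Slit2* and *Unc5b*, and not for *Slit3* or *Neo1*. The median over all promoters was 3, and 96.0% hold it. The longer CAGGAAG, which contains GGAA, was found once, for *Robo4*, and in none of the other matched members, and 13.3% of all promoters hold it. Another longer form that was searched, CCGGAAG, was found in none of the matched members, *Robo4* included, and 8.86% of all promoters hold it. The GC box GGGCGG was found in *Slit2*, *Slit3*, *Ntn4*, *Unc5b* and *Neo1*, and in 35.7% of all promoters. The printed *Robo4* stretch holds no GGAA on either strand, so the *Robo4* matches of GGAA and CAGGAAG lie in the unprinted rest of its window. That rest begins at the GENCODE start of the gene. All these motif matches describe letters in a window and not bound sites.

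miR-218-5p has the same mature sequence from both of its genes. *Mir218-1* lies in intron 14 of *Slit2* (chr5:48223942-48224051) and *Mir218-2* in intron 14 of *Slit3* (chr11:35616816-35616925), each on the strand of its host. The seed, bases 2 to 8, is in capitals in the microRNA, and its complement AAGCACA is in capitals in 30-base stretches of the *Robo1* and *Robo2* 3′ untranslated regions, read from GENCODE M21 transcripts.
miR-218-5p: uUGUGCUUgaucuaaccaugu
Robo1 site: ctttttttttttggttttaaAAGCACAatc
Robo2 site a: ctgcgattttatttggtgatAAGCACAaat
Robo2 site b: tgtgtagtcacggcagacccAAGCACAgct
The *Robo1* 3′ untranslated region held 1 seed match, and that of *Robo2* held 2. *Slit2* and *Ntn4* each held 2 matches and *Neo1* held 1, while *Slit1*, *Slit3*, *Robo4*, *Unc5b* and *Ntn1* held none. Of 20931 genes with a 3′ untranslated region, 13.6% held at least 1 match, at a median length of 935 bases. The untranslated regions of the members were 365 to 3987 bases long, and long regions hold more matches of any letters. Both microRNA genes were listed at 0 in the 3 libraries. Mature microRNAs are not captured by poly-A selection, so these libraries do not measure miR-218.

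The low values put the depth at an estimated 34200000 (S52) to 38700000 (S44) fragments. The endothelial label was checked with 10 markers, which were detected (mean of at least 1 FPKM) in 10 of 10 cases and summed to 6291 to 7058 FPKM. Of these, *Pecam1* and *Cdh5* encode CD31 and VE-cadherin, the proteins used in the sort. Genes of other lung cells were present as well and differed between libraries. Alveolar type 2 markers summed to 3797, 3184 and 767 FPKM and airway markers to 2780, 2316 and 401 FPKM (S38, S44, S52). *Sftpc* alone was at 3333, 2862 and 658 FPKM. The endothelial marker with the highest mean, *Cldn5*, was at 1486, 1732 and 1029 FPKM. The median of 4 platelet markers, none of them listed at 0, was 244 FPKM (S38), 216 FPKM (S44) and 9.11 FPKM (S52). Alveolar type 2, airway and leukocyte markers were likewise lowest in S52 (6 of 6, 5 of 5 and 6 of 6 genes), while 7 of 7 mural markers were lowest in S44. Detected were also 6 of 6 alveolar type 1, 7 of 7 fibroblast, 4 of 5 lymphatic, 3 of 6 neural and glial and 1 of 4 mesothelial markers. Of all genes, 48.3% were detected. The lymphatic marker not detected was *Prox1* (mean 0.301 FPKM), and *Pdpn* was counted in both the lymphatic and the alveolar type 1 list. In bulk samples, fewer cells of a type and less RNA per cell cannot be told apart.

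Of the 10 members, 6 were detected, against 48.3% of all 24346 genes. They were *Robo4*, *Ntn1*, *Ntn4*, *Unc5b*, *Slit3* and *Neo1*, that is, 3 of 5 receptors and 3 of 5 ligands, and 3 of them lay above 10 FPKM. *Slit2*, *Robo2*, *Robo1* and *Slit1* lay below 1 FPKM. Members of the same family therefore stood far apart, with *Robo4* and *Slit3* detected beside undetected relatives.

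**Figure D1:**
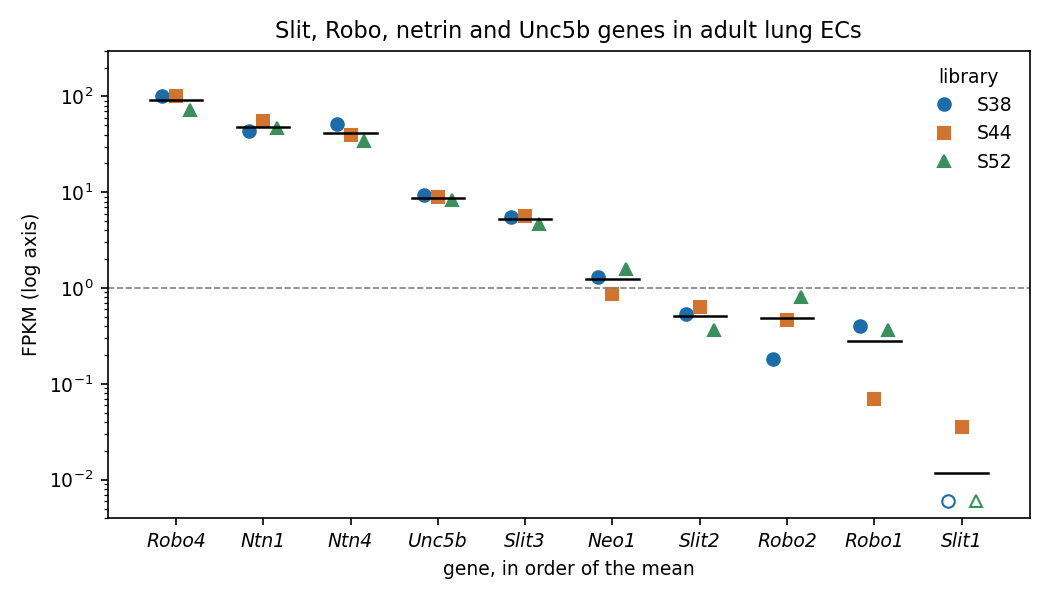
FPKM of the 10 genes (log axis) in libraries S38 (circles), S44 (squares) and S52 (triangles), with the mean of the 3 as a black bar and 1 FPKM as a dashed line. Open symbols at the foot of the plot are values listed at 0, and the means run from 91.7 FPKM for *Robo4* down to 0.0117 FPKM for *Slit1*.

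*Slit3*, a Slit ligand made by vessels and mural cells in many tissues, was the only Slit above 1 FPKM. It was at 5.53 FPKM (S38), 5.62 FPKM (S44) and 4.63 FPKM (S52), a mean of 5.26 ± 0.548 FPKM (SD, n = 3). The 3 values lay close together, and the highest was 1.21 times the lowest. Markers of mural cells and fibroblasts were detected in these libraries, and the part of such cells in the *Slit3* values was not tested. The gene spans chr11:35121224-35708507 on the plus strand, and its longest coding transcript has 36 exons.

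*Slit2*, a much studied ligand of Robo1, was at 0.536, 0.641 and 0.365 FPKM (S38, S44, S52), a mean of 0.514 ± 0.140 FPKM (SD, n = 3). All 3 libraries were below the detection threshold, and these values stand for an estimated 198, 244 and 122 fragments (chr5:47983138-48307733, plus strand). In every library *Slit3* was higher than *Slit2*, by 10.3, 8.76 and 12.7 times, a log2 ratio of 3.39 ± 0.27 (SD, n = 3).

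*Slit1*, a Slit best known from the nervous system, was listed at 0 in S38 and S52 and at 0.0352 FPKM in S44 (chr19:41600257-41743665, minus strand). The value in S44 stands for an estimated 7.52 fragments. At these depths a count of 0 allows up to 0.0144 FPKM in S38 and 0.0159 FPKM in S52, taking 3 fragments as the limit and counting error only. *Slit1* was thus at or near the limit of detection in all 3 libraries.

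*Robo4* was the highest of the 10 members. It was at 101 FPKM (S38), 102 FPKM (S44) and 72.1 FPKM (S52), a mean of 91.7 ± 17.0 FPKM (SD, n = 3). S52 was the lowest library, as it also was with each of the 3 rescalings tried, and the highest value was 1.42 times the lowest. By its mean *Robo4* ranked 956 of 24346 genes. Within each library it was at 0.115, 0.105 and 0.0794 of the level of *Cdh5*, the VE-cadherin gene whose protein was used in the sort. The gene is short for the family (chr9:37401897-37415115, plus strand), with 18 exons in its longest coding transcript against 29 for *Robo1*.

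*Robo1*, the widely expressed receptor of Slit2 and Slit3, was at 0.401 FPKM (S38), 0.0689 FPKM (S44) and 0.369 FPKM (S52) (mean 0.280 ± 0.183, SD, n = 3). S38 and S52 lay near each other and S44 was 5.82 times below S38, at an estimated 19.8 fragments against 112 and 93.2. The sum of 7 mural markers was 136, 71.2 and 134 FPKM in the same order, with none of the 7 listed at 0. Also lowest in S44 were 3 of 6 neural and glial, 3 of 6 alveolar type 1 and 3 of 7 fibroblast markers. The same was true of 1 of 5 lymphatic and 1 of 10 endothelial markers. The part of mural or other RNA in the *Robo1* values was not tested. The gene lies at chr16:72308306-73046095 on the plus strand.

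*Robo2*, a receptor with roles in axon guidance and in the budding of the ureter, was at 0.183, 0.466 and 0.812 FPKM (S38, S44, S52) (mean 0.487 ± 0.315, SD, n = 3). S52 was the highest library and S38 the lowest, a ratio of 4.42, the reverse of the order of the platelet, alveolar type 2 and airway medians, whose part in these values was not tested. The gene follows *Robo1* on the same chromosome, on the opposite strand (chr16:73891839-74411825). *Robo1* and *Robo2* thus had their lowest values in different libraries.

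*Robo4* exceeded *Robo1* by 251 times in S38, 1487 times in S44 and 196 times in S52, a log2 ratio of 8.71 ± 1.60 (SD, n = 3). The size of the ratio in S44 rests on the low *Robo1* value there, and without S44 the log2 ratio was 7.79. Against the summed Slit ligands, *Robo4* was 16.6, 16.3 and 14.4 times higher, a log2 ratio of 3.98 ± 0.11 (SD, n = 3). The Slit sum was nearly all *Slit3*, since *Robo4* was 18.2, 18.2 and 15.6 times above *Slit3* alone.

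*Ntn1*, which encodes the classic secreted netrin, was at 43.5 FPKM (S38), 55.6 FPKM (S44) and 46.5 FPKM (S52), a mean of 48.5 ± 6.31 FPKM (SD, n = 3). S44 was the highest library in the values as deposited, but S38 was when each library was rescaled to the same sum. *Ntn1* ranked 1802 of 24346 genes and lies at chr11:68209364-68400823 on the minus strand.

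*Ntn4*, which encodes a netrin that binds laminin in basement membranes, was at 51.5, 39.5 and 34.4 FPKM (S38, S44, S52), a mean of 41.8 ± 8.81 FPKM (SD, n = 3). S38 was highest, and the highest value was 1.50 times the lowest (chr10:93640681-93747207, plus strand). Some markers of other cells ran in the same order of libraries, falling from S38 to S44 to S52. These were 4 of 4 platelet, 5 of 6 alveolar type 2, 4 of 5 airway and 3 of 7 fibroblast genes. The order also held for 3 of 6 leukocyte, 3 of 6 neural and glial and 2 of 6 alveolar type 1 genes. It held for 1 of 10 endothelial genes, and for 0 of 7 mural, 0 of 5 lymphatic and 0 of 4 mesothelial genes. The fibroblast markers summed to 98.2, 80.4 and 63.7 FPKM, of which *Dcn* alone gave 47.4, 35.5 and 19.8 FPKM. The part of these cells in the *Ntn4* values was not tested. The ranges of *Ntn1* and *Ntn4* overlapped. *Ntn4* was the higher of the pair in S38 (1.19 times *Ntn1*) and the lower in S44 and S52 (0.710 and 0.740 times), and the log2 ratio of -0.23 was within its SD of 0.41 (n = 3).

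*Unc5b* was the most even of the detected members. It was at 9.29 FPKM (S38), 8.93 FPKM (S44) and 8.21 FPKM (S52), a mean of 8.81 ± 0.550 FPKM (SD, n = 3). The highest value was 1.13 times the lowest, and 11.4% of detected genes had a smaller ratio; with each library rescaled to the same sum the ratio was 1.45, and *Ntn1*, at 1.15, was then the most even. The gene lies at chr10:60762593-60831581 on the minus strand.

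*Neo1*, which encodes neogenin, a relative of DCC that binds netrins and repulsive guidance molecules, was at 1.30 FPKM (S38), 0.867 FPKM (S44) and 1.57 FPKM (S52), a mean of 1.25 ± 0.353 FPKM (SD, n = 3). S44 alone was below 1 FPKM, so that *Neo1* lay at the detection threshold (chr9:58874687-59036441, minus strand). As for *Robo1*, the low library was S44, where the mural markers and some markers of other cells were also lowest. The part of these cells in the *Neo1* values was not tested.

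In every library *Unc5b* was above *Neo1*, by 7.13, 10.3 and 5.24 times, a log2 ratio of 2.86 ± 0.49 (SD, n = 3). Against the summed netrins *Unc5b* was at 0.0978, 0.0939 and 0.102 of their level, a log2 ratio of -3.36 ± 0.06 (SD, n = 3), the narrowest of the 8 ratios computed. For these receptors the relation had opposite signs in the 2 families, with *Robo4* above the Slits and *Unc5b* below the netrins in 3 of 3 libraries. The sign depended on the receptor chosen. *Robo1* and *Robo2* were each below the Slit sum (6.06, 6.30 and 4.99 FPKM in S38, S44 and S52) in every library. *Mcam*, one of the other receptors listed below, was above the netrin sum (222, 253 and 262 against 95.0, 95.1 and 80.9 FPKM). These are levels of RNA in the sorted fraction, which also held RNA of other lung cells. The part of those cells in the Slit and netrin sums was not tested. Ligand made by lung cells that were not sorted is outside these values.

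**Figure D2:**
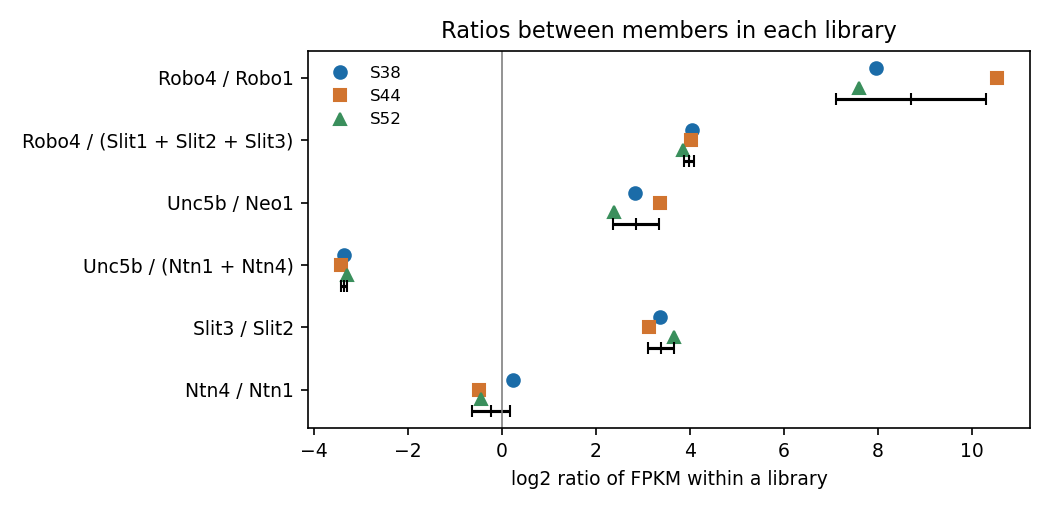
Log2 ratio of FPKM between members within each library (horizontal axis), with libraries S38 (circles), S44 (squares) and S52 (triangles) and, below them, the mean ± SD of the 3 in black. A value of 0 is equal level, and the ratio of *Ntn4* to *Ntn1* is the one that falls on both sides of it.

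Ordered by mean, the levels ran *Robo4*, *Ntn1*, *Ntn4*, *Unc5b*, *Slit3*, *Neo1*, *Slit2*, *Robo2*, *Robo1*, *Slit1*. Of the 9 neighbouring pairs, 6 kept their order in every library and did not overlap in range. In log2(FPKM + 1), the largest of these steps was from *Ntn4* down to *Unc5b*, a mean difference of 2.11 ± 0.22 (SD, n = 3). The added 1 shrinks steps between low genes, so this ranking holds on that scale only. The step from *Robo1* to *Slit1*, at means of 0.280 and 0.0117 FPKM, was 0.33 on it. The pairs *Ntn1* and *Ntn4*, *Slit2* and *Robo2*, and *Robo2* and *Robo1* overlapped and kept their order in 2 of 3 libraries. With 3 libraries the exact two-sided sign-flip permutation test cannot go below p = 0.25, which these 6 pairs reached (adjusted p = 0.375 over the 9 pairs), so the order rests on the separation of the values and on no test.

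Among the detected genes, 20.1% differed over 2-fold between their highest and lowest library, and 0 of the 6 detected members did. The median ratio was 1.35 over these 6 members and 1.40 over all 11770 detected genes. *Neo1* varied most of the 6 (1.81-fold, larger than 74.8% of detected genes) and *Unc5b* least. With libraries rescaled to the same sum, *Neo1* passed 2-fold (2.09) at a mean below the detection threshold. Below the threshold, *Robo1* and *Robo2* passed 2-fold (5.82 and 4.42), with an estimated 19.8 to 112 and 58.4 to 234 fragments behind their values.

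**Figure D3:**
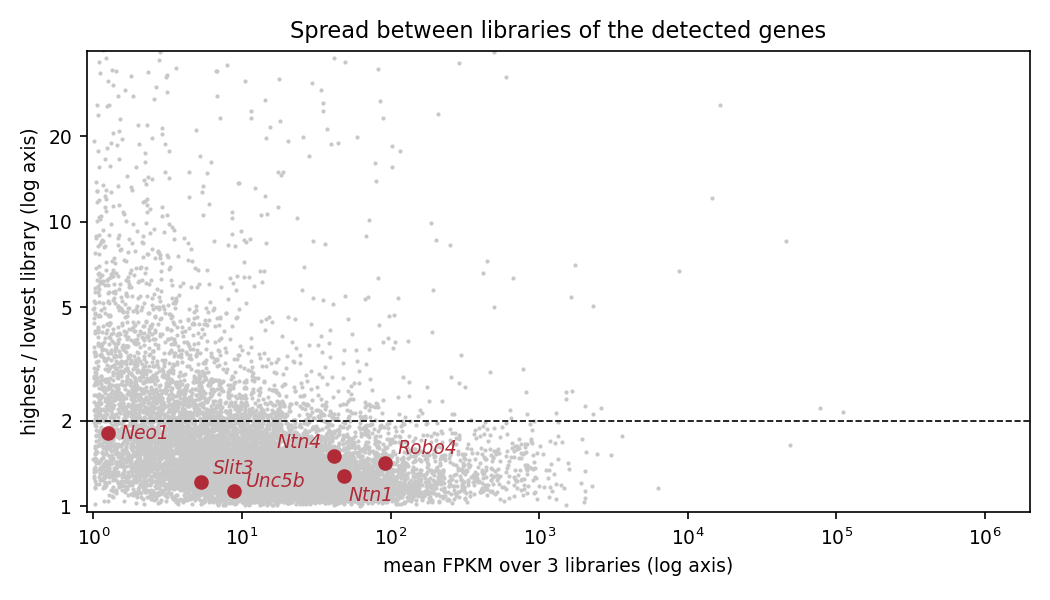
Ratio of the highest to the lowest library (log axis) against mean FPKM (log axis) for detected genes, with the 6 detected members in red and 2-fold as a dashed line. All 6 lie below the line, between 1.13 for *Unc5b* and 1.81 for *Neo1*. The axes hold 11528 genes, 46 lie above 40-fold and 196 are listed at 0 in a library and have no ratio.

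The remaining genes of the pathways were taken from lists of other ligands, other receptors, coreceptors and matrix partners, cytoplasmic effectors and the miR-218 genes, 58 genes in all, of which 38 (65.5%) were detected, against 48.3% of all genes. Detection was uneven over the roles. It was 3 of 11 for other ligands and 2 of 8 for other receptors, but 10 of 11 for coreceptors and matrix partners and 23 of 26 for cytoplasmic effectors.

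Of the other ligands, *Rgmb*, a repulsive guidance molecule that binds neogenin, was at 7.15, 10.1 and 9.38 FPKM (S38, S44, S52). *Ntng2*, a membrane-anchored netrin-G, was at 4.19, 4.29 and 2.70 FPKM. *Draxin*, a secreted ligand that binds netrin-1 and DCC, was at 6.27, 4.34 and 0.0408 FPKM. The low *Draxin* value was in S52, the library in which 4 of 4 platelet, 6 of 6 alveolar type 2, 5 of 5 airway and 6 of 6 leukocyte markers were lowest, and the part of these cells was not tested. *Flrt2* and *Flrt3*, which encode ligands of Unc5 receptors, had means of 0.740 and 0.710 FPKM, and *Rgma* had a mean of 0.683 FPKM. The secreted netrins *Ntn3* and *Ntn5* had means of 0.195 and 0.0924 FPKM, *Hfe2* of 0.0321 FPKM and *Flrt1* of 0.00457 FPKM, and *Ntng1* was listed at 0 in all 3 libraries.

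Of the other receptors, *Mcam*, which encodes CD146, an adhesion molecule of vessels that also binds netrin-1, was at 222, 253 and 262 FPKM. It was above each of the 10 members in every library. *Unc5a* was at 1.55, 2.77 and 2.93 FPKM, below *Unc5b* in all 3 libraries. The means of *Unc5c* and *Unc5d* were 0.223 and 0.00968 FPKM. *Robo3*, the Robo of commissural axons, had a mean of 0.233 FPKM, near that of *Robo1*. *Dcc*, the gene of the classic attractive netrin receptor, was listed at 0 in S38 and S52 and at 0.00502 FPKM in S44. *Dscam* likewise was above 0 in S44 alone, at 0.00349 FPKM, and *Adora2b* was at 0.998 and 0.486 FPKM in S38 and S44 and listed at 0 in S52. *Unc5b* was thus the highest of the 4 Unc5 genes and *Robo4* the highest of the 4 Robo genes.

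The coreceptors and matrix partners were led by integrin subunits that bind laminins and netrins. *Itgb1* had a mean of 343 ± 16.9 FPKM, *Itga6* of 109 ± 18.2 FPKM and *Itga3* of 104 ± 27.2 FPKM (SD, n = 3). *Sdc3* and *Sdc4*, syndecans with heparan sulfate chains of the kind that bind Slits, had means of 41.8 and 41.7 FPKM. *Gpc1*, which encodes a glypican that binds Slit2, was not detected (1.48, 0.911 and 0.0779 FPKM).

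Among cytoplasmic effectors, *Rac1* and *Cdc42*, which encode small GTPases that organise the actin cytoskeleton, had means of 367 ± 43.5 FPKM and 278 ± 23.2 FPKM (SD, n = 3). *Srgap2*, the highest of the Slit-Robo GTPase activating proteins, had a mean of 11.9 FPKM, *Srgap1* 5.60 FPKM and *Srgap3* 0.167 FPKM. Of the 38 detected pathway genes, 5 differed over 2-fold between libraries (*Draxin*, *Sdc1*, *Lamc1*, *Src* and *Nck2*), a share of 13.2% against 20.1% of all detected genes. All 5 were lowest in S52, as were 64.9% of all detected genes over 2-fold. *Draxin* and *Sdc1* changed most, 154-fold and 5.89-fold.

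**Figure D4:**
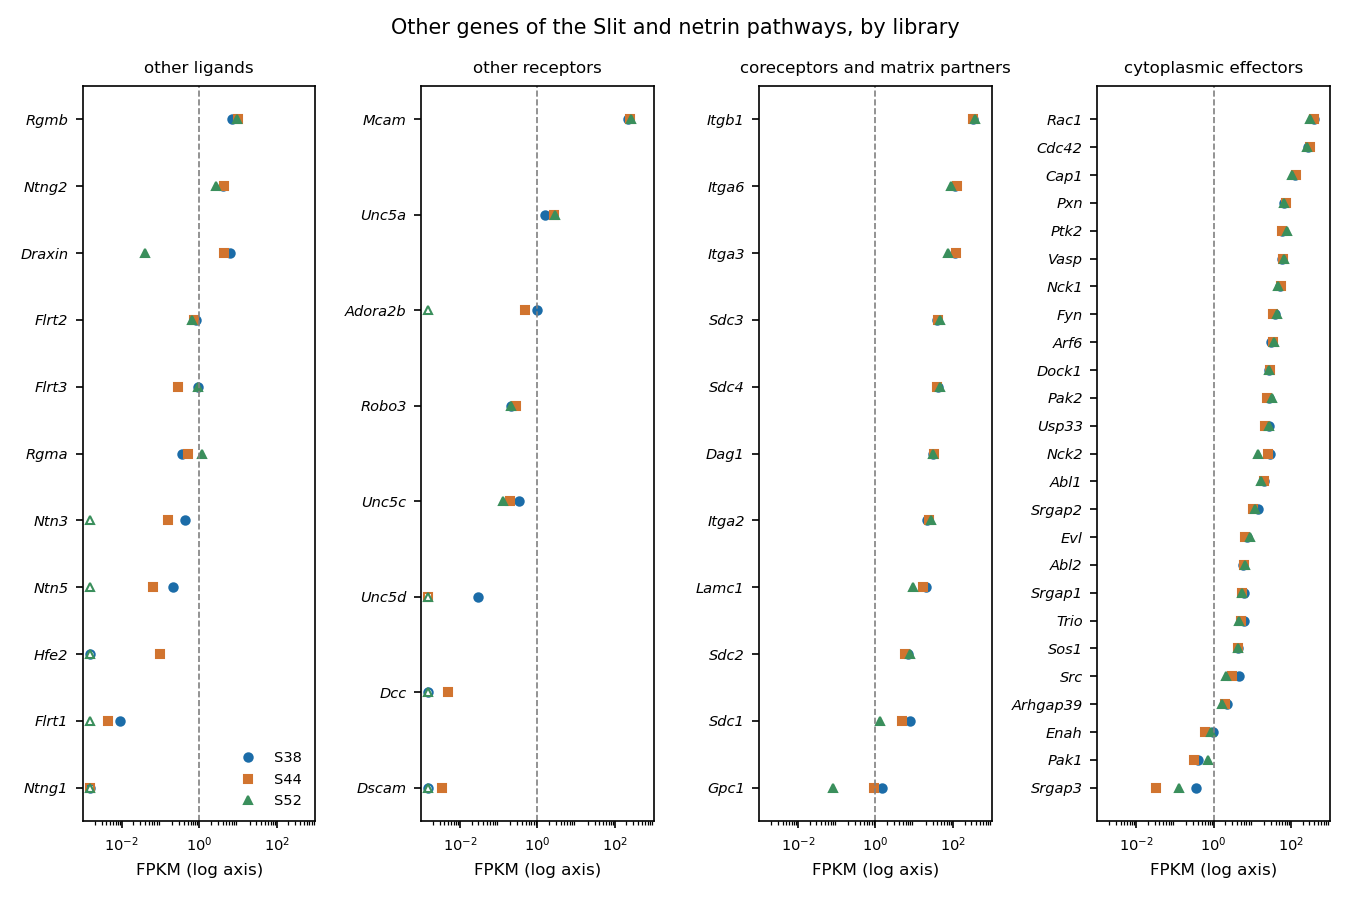
FPKM (log axis) of the other pathway genes reported here in libraries S38 (circles), S44 (squares) and S52 (triangles), in 4 groups by role and in order of the mean, with 1 FPKM as a dashed line. Open symbols at the left edge are values listed at 0. Most ligands and receptors lie left of the line and most coreceptors and effectors right of it, and *Draxin* in S52 stands far from its other values.

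Set beside 53 genes of the semaphorin, plexin, neuropilin, ephrin and Eph families, which also guide axons and vessels, *Robo4* lay below 7 of them. Of the 25 receptors among these, *Nrp1*, which encodes a coreceptor of semaphorins and VEGF (245, 260 and 175 FPKM), was the only one with a higher mean. *Epha2* was above *Robo4* in S52 (97.6 against 72.1 FPKM) and below it in S38 and S44. *Unc5b* lay below 8 and *Neo1* below 11 of the 25. Of the 28 ligands, *Sema3c*, *Sema3f* and *Sema3g* led, and *Ntn1* and *Ntn4* each lay below 7 of them, *Slit3* below 12 and *Slit2* below 22.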

How the data were processed

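The authors deposited FPKM values for 24346 gene symbols in 3 libraries of 1 group (n = 3), and no per-sample column was left out (0 columns not used). The submitters' processing notes name bcl2fastq 2.17, FastQC 0.11.5, Trimmomatic 0.36, TopHat2 2.1.0 and Cufflinks 2.2.1 on mm10, whereas the methods of the study describe STAR and HTSeq for counts. The gene annotation is not given in the sources used here. RNA was poly-A selected, and libraries were non-stranded and read as pairs of 51 bp.

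The members, lists and tests were chosen with earlier results of these data known. FPKM were used as deposited, without rescaling. FPKM of a gene can include fragments split between transcripts by estimation, and where a gene has the value 0 the estimate may have failed, hence the wording listed at 0. Detection meant a mean of 1 FPKM or more. Neighbours in the order of levels were compared by an exact two-sided sign-flip permutation test on log2(FPKM + 1), with Benjamini-Hochberg adjustment; a pseudocount of 1 understates differences of low genes. No model across genes was fitted, since there was 1 group. The named genes are the 10 members, the markers, every gene of the lists of other ligands and receptors, the 3 highest genes of each further list, and the 3 genes nearest to the highest member receptor and ligand by Euclidean distance. *Sdc3*, *Sdc4*, *Gpc1*, the *Srgap* genes, the genes over 2-fold between libraries, *Cdh5* as a denominator and the semaphorin, neuropilin and Eph genes were added after their values were seen. An opposite-strand transcript of a plexin gene was left out of the guidance families after the first count. For the effector list, 1 gene is not reported here.

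Depth was estimated from 7077 genes whose only basic transcript in GENCODE M21 is 800 to 4000 bp long, by finding the number of fragments that makes low FPKM values whole. The share of low values within 0.15 of a whole number was 75.7% to 78.7%. On simulated counts for the same 7077 genes, made to stand for a lung EC library, 3 known depths were recovered with an error of at most 0.0999%. The annotation behind the FPKM of S38, S44 and S52 is not given, and the error of their estimated depths was not tested. A limit of 3 fragments for a value of 0 and estimated fragments of members (from the length of the longest coding transcript) cover counting error only. Positions are GRCm38, GENCODE M21, where 95.7% of symbols were found. Of 51-base windows in the members' transcripts, 14 of 5819 in *Unc5b* and 28 of 3596 in *Ntn4* occur in other genes, and 0 in the other 8 members. Python 3.11.15, pandas 2.3.3, NumPy 2.4.6 and matplotlib 3.10.9 were used. The alternatives tried were 3 rescalings, other thresholds and pseudocounts, and leaving out each library.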

Additional observations from a re-analysis of the deposited data

How the results depend on the processing

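No paired analysis was possible because the libraries form 1 group. The 3 rescalings shifted the median gene by up to 1.10 on the log2 scale. They moved 15 of 30 member means by 1 SD or more. Leaving out a library moved 0 of 30, but with 3 libraries this step cannot move a mean by 1 SD. That count therefore says nothing about how steady the means are. The neighbouring pairs that kept their order in every library numbered 6 under each rescaling. A rescaling multiplies all genes of a library by the same number, so this count could not change. The number of members detected was 5 with each library rescaled to a sum of 1000000 (*Neo1* fell below the threshold), 8 with the same rescaling without short noncoding genes (*Slit2* and *Robo2* passed it) and 3 at a threshold of 10 FPKM. Members over 2-fold between libraries numbered 1 under the rescaling without short noncoding genes (*Robo2*) and 2 with no filter on detection (*Robo1* and *Robo2*). Pathway genes detected numbered 25 at a threshold of 10 FPKM. With 1 FPKM added to both sides, the log2 ratio was 6.17 for *Robo4* to *Robo1*, 3.76 for *Robo4* to the Slit sum, 2.14 for *Unc5b* to *Neo1*, -3.22 for *Unc5b* to the netrin sum and 2.05 for *Slit3* to *Slit2*, as the addition itself shrinks ratios with a low side. Without 1 library, the neighbouring pairs that kept their order numbered 6 to 8 and the guidance family genes above *Robo4* 6 to 8. The number of such pairs could not fall below 6 when a library was left out. No ratio changed sign in these settings.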

Other observations

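By Euclidean distance in log2(FPKM + 1) over the 3 libraries, the genes nearest to *Robo4* were *Pxdn* (99.2, 110 and 68.7 FPKM in S38, S44 and S52, distance 0.128), *Lims2* (distance 0.130) and *Uqcr10* (distance 0.142). Those nearest to *Ntn1* were *Mvp* (42.7, 54.1 and 47.1 FPKM, distance 0.0490), *Nod1* (distance 0.0538) and *Prkcsh* (distance 0.0796). With 3 libraries of 1 group, likeness of this kind reflects mostly a similar level.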
